A study of Homo sapiens with 27 samples.

Results

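The 10 genes described here act in making melanin, in the organelle that holds it or, for MC1R, in the signal for it. They are TYR, TYRP1, DCT, PMEL, MLANA, SLC45A2, OCA2, SLC24A5, GPR143 and MC1R. They were listed by name from their known roles, with earlier results of these data already known, and matched by exact symbol. All 10 were among the 13523 genes of the deposited expression table, and all 10 passed the filter on low values, which kept 13052 genes for testing.

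Melanin is made in melanosomes, organelles related to lysosomes that are found in pigment cells. Tyrosinase (TYR) carries out the first steps from tyrosine, and DCT and TYRP1 act further along the path to eumelanin, on fibrils built from PMEL. Ion transporters set the pH and calcium of the organelle, on which tyrosinase activity depends. MC1R, the receptor for melanocyte-stimulating hormone at the cell surface, raises cAMP and through it MITF, the transcription factor that drives many pigment genes. TFE3 and TFEB are relatives of MITF that bind related DNA motifs and enter the nucleus when the kinase mTOR is off.

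The study profiled polyadenylated RNA of 501mel, an established human melanoma line that makes MITF, with 3′ end libraries. In this kind of library a read stands for 1 transcript end, so levels are not divided by transcript length. There were 9 groups, each labelled with 3 libraries. Unedited (WT) cells were left non-treated, starved for 12 h in HBSS (a buffered salt solution that has glucose but no amino acids), or given 250 nM Torin for 12 h, an inhibitor of mTOR. TFE3 KO, TFEB KO and TFE3/TFEB double KO (DKO) cells, made with Cas9, were kept for 12 h as controls or with Torin at the same dose. The label of the untreated WT group gives no time, whereas the untreated knockout groups carry the 12 h control label. No knockout was kept in HBSS. Each knockout genotype is 1 isolated clone, so clone and genotype cannot be told apart in any comparison of genotypes. The libraries of a group are separate samples in the labels, and no source used here ties them to separate cultures or days, so p-values measure the spread between these samples only.

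The columns labelled WT HBSS replicate 3 and WT Torin replicate 1 were the same, value for value, across the 13523 genes. A library cannot belong to both groups, so this shared column was left out of both, which gave n = 2 for WT HBSS and WT Torin and n = 3 for the other 7 groups. Its values lay nearer the WT HBSS mean than the WT Torin mean, on the log2 scale, for 9 of the 10 members. It read DCT at 4570.4, TYR at 440.3 and MC1R at 30.7, where the 2 WT Torin libraries read DCT at 693 and 682, TYR at 134 and 132 and MC1R at 65.2 and 78.5. GPR143, at 307, was the exception. The column was still not assigned, because groups were taken from labels and not from values, and both placements were run as alternatives. Placing it in WT Torin left every fold change that does not involve WT Torin as it was and raised the SE shared by the groups. The SE of DCT in DKO against WT cells, for instance, went from 0.07 to 0.44, and that of OCA2 from 0.12 to 0.14.

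Levels below are normalised read counts, scaled as CPM. In the 25 libraries 3 reads, the upper limit behind a count of 0, were worth 0.460 to 0.711. The 25 libraries held 4147050 to 6526392 reads in the genes of the table. TFE3 read 23.8 to 24.3 in untreated WT cells against 5.06 to 7.59 in TFE3 KO and 5.93 to 6.86 in DKO cells. TFEB read 2.34 to 3.96 in untreated WT cells, 12 to 21 reads a library, against 0.750 to 1.66 in TFEB KO, 0.177 to 1.56 in TFE3 KO and 0.156 to 1.05 in DKO cells. Untreated TFEB was thus at few reads in every genotype and also lower in the TFE3 clone than in WT cells (-1.41 ± 0.32, adjusted p = 0.00185). In WT cells in HBSS, TFEB read 30.4 and 28.05, a rise of 2.85 ± 0.36 (adjusted p = 4.43e-09), while TFE3 did not pass (0.02 ± 0.19, adjusted p = 0.949). Under Torin, TFEB KO replicate 1 read TFEB at 3.45, or 20 reads, within the untreated WT range, where the other two libraries of that group read 0.628 and 0.611. Without that library the OCA2 difference from WT Torin (-0.41, against -0.43 with it) and the PMEL interaction (-0.30 with and without it) did not pass. Both calls, described below, were also lost when other single libraries were left out. TFE3 rose under Torin in TFE3 KO cells, to 9.13 to 13.99 (0.68 ± 0.17, adjusted p = 0.00102), and stayed below the 17.5 and 20.4 of WT Torin. Of 8 melanocytic markers all were in the table: MITF, SOX10, S100B and the members PMEL, MLANA, TYR, DCT and TYRP1. Their sum ran from 5193 to 14482 over the 25 libraries and, as it holds members, is no separate check of the cell type. Of 6 fibroblast markers 2 were in the table, COL1A1 and LUM, with sums of 0.208 to 6.62. Of 5 immune markers 1 was in the table, CD68, at 29.5 to 74.2, and of 5 keratinocyte markers 1, KRT10, at 48.1 to 117.

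Promoter windows of the members are given first, because the members fall into sets that moved together and because MITF, TFE3 and TFEB are known to bind the hexamers CATGTG and CACGTG. The windows span 250 bases before to 50 bases after the RefSeq start of each gene in GRCh38.p14. They were found for 8 of the 10 members, and PMEL and SLC45A2 had none in the RefSeq table used. These 8 genes had 9 windows, because DCT had 2. On either strand, CATGTG lay in 7 of the 9 windows and in 11.1% of all 35116 windows of this length. The longer TCATGTG, which contains CATGTG, lay in 5 of the 9 and in 2.92% of all. CACGTG and the longer TCACGTG, which contains it, lay in 0 of the 9 and in 7.26% and 3.71% of all windows. Among the 14607 windows of genes in the deposited table, CATGTG lay in 7.87% and TCATGTG in 1.96%. In those windows CACGTG lay in 9.39% and TCACGTG in 5.37%, so CACGTG was the more frequent hexamer there. The members were chosen as pigment genes, many of which MITF is known to drive, so these counts are not a test. A match is a description of the letters in the window, not a site of binding, and the RefSeq start need not be the one used in these cells.

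The 5 windows below belong to the 3 enzymes, to OCA2, which rose most under Torin, and to MC1R, which fell most in HBSS. They lie at chr11:89177625-89177924 on the + strand for TYR, chr9:12693135-12693434 on the + strand for TYRP1, chr13:94479633-94479932 on the - strand for DCT, chr15:28099266-28099565 on the - strand for OCA2 and chr16:89918612-89918911 on the + strand for MC1R. Capitals mark CATGTG, or CACATG where it lies on the other strand.
TYR: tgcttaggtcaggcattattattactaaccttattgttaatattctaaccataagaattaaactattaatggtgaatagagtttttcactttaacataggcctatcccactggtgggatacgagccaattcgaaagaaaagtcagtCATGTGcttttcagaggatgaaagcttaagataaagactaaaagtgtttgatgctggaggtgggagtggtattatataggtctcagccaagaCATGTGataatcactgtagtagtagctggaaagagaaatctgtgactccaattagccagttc
TYRP1: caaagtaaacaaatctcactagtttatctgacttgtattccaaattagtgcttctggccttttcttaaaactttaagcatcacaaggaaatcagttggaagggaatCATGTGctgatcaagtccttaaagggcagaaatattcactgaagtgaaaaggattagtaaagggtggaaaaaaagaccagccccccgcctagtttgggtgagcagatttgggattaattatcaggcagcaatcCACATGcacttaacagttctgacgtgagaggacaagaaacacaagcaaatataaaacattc
DCT: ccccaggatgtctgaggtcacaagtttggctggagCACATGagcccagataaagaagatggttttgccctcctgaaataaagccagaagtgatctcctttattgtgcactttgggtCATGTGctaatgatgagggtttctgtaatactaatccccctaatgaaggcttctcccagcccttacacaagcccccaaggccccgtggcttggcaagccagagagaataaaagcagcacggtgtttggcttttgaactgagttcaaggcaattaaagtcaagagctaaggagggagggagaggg
OCA2: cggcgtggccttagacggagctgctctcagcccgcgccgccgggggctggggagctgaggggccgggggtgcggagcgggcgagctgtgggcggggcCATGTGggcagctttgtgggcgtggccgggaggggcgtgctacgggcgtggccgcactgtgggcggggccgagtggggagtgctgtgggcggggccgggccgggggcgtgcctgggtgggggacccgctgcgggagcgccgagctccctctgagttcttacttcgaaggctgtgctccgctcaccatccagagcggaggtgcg
MC1R: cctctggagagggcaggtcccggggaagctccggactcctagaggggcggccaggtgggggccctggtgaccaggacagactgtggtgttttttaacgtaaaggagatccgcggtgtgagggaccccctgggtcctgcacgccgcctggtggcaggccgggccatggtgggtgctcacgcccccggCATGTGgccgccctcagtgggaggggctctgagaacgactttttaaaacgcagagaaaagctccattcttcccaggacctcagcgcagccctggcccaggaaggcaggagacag
TYR, TYRP1 and DCT each held 2 matches, and OCA2 and MC1R each held 1. GPR143 held 2 and SLC24A5 held 1 in windows not printed, while the MLANA window and a further window of DCT, at chr13:94549357-94549656, held none. In TYR the matches began 104 and 12 bases before the start, in TYRP1 144 and 11, and in DCT 215 and 134.

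In GENCODE 44 on hg38 the 10 members are protein-coding genes. TYR lies at chr11:89177875-89295759 with 5 exons in its canonical transcript, TYRP1 at chr9:12685439-12710285 with 8, DCT at chr13:94436811-94479682 with 8, PMEL at chr12:55954105-55973317 with 11 and MLANA at chr9:5890889-5910606 with 5. SLC45A2 lies at chr5:33944623-33984693 with 7 exons, OCA2 at chr15:27754875-28099315 with 24, SLC24A5 at chr15:48120990-48142672 with 9, GPR143 at chrX:9725346-9786297 with 9 and MC1R at chr16:89912119-89920973 with 1. The 3′ ends of TYRP1, MLANA, GPR143 and SLC24A5 lie inside a gene of the opposite strand that is also in the table (LURAP1L-AS1, KIAA2026, TBL1X and MYEF2). These overlaps are of whole gene spans, not of exons, and the strand setting of the counting is not given in the sources used here. Whether reads of these pairs were mixed was not tested. The 3′ end of MC1R lies inside ENSG00000198211, an annotated protein-coding locus of the same strand that runs through it, so reads assigned to MC1R may include that transcript.

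**Figure D1:**
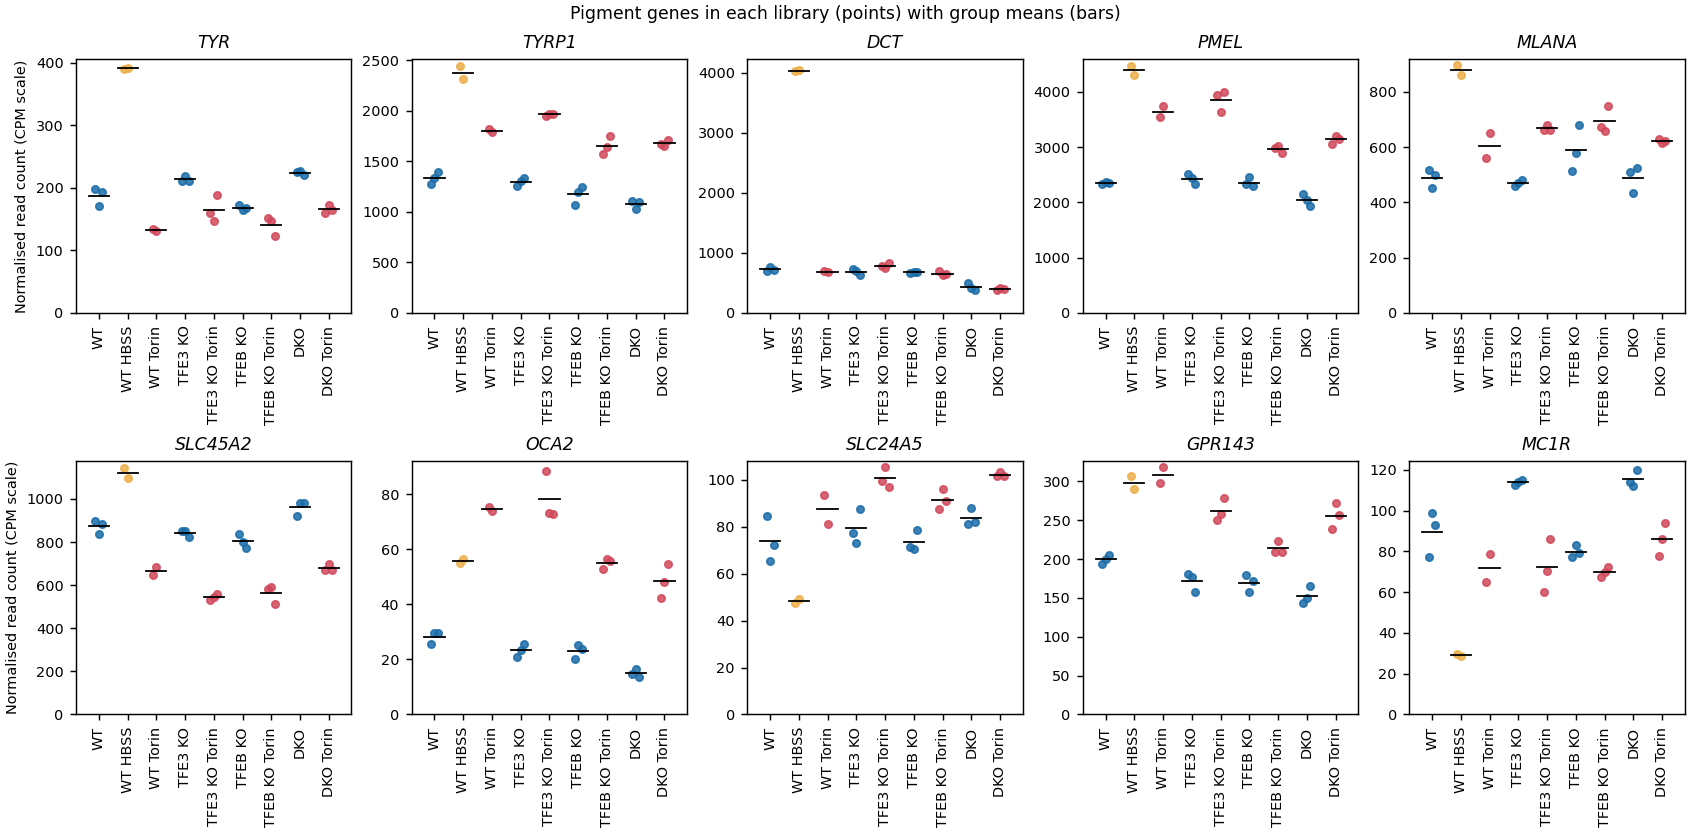
Normalised read count (CPM scale, axis from 0) of each of the 10 pigment genes in the 25 libraries. Points are libraries, bars are group means, blue marks untreated groups, yellow WT HBSS and red Torin. In WT HBSS, DCT stood at 4030.4 and 4047 while MC1R stood at 29.7 and 28.7, the lowest MC1R levels of all groups.

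The first question was how the pigment genes responded when unedited cells lost amino acids. All 10 members changed after 12 h in HBSS: 8 were higher and 2, MC1R and SLC24A5, were lower. Across all genes tested, 23.6% were higher and 24.7% lower at the same threshold, an adjusted p under 0.05. DCT rose most, 5.54-fold, and MC1R fell to 0.334 of its untreated level. The median log2 fold change was 0.84 over the members and -0.03 over all genes. The libraries of the 2 groups did not overlap for any of the 10 genes, a count that was not made over all genes. Changes of at least 2-fold were found in TYR and DCT (higher, 6.9% of all genes) and in MC1R (lower, 6.2% of all genes). In bulk RNA, fewer cells of a type and less RNA per cell cannot be told apart.

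Among the enzymes, DCT read 704, 759 and 721 in untreated WT cells and 4030.4 and 4047 in HBSS. Both HBSS libraries stood far above every untreated one, with a log2 fold change of 2.47 ± 0.08 (SE; adjusted p = 1.31e-28). TYR read 198, 171 and 194 untreated and 391 and 393 in HBSS. It was the other member past 2-fold upwards (1.06 ± 0.09, adjusted p = 8.57e-14). TYRP1 rose from 1334 ± 59.2 (SD, n = 3) to 2378 ± 90.6 (n = 2), a log2 fold change of 0.83 ± 0.07 (adjusted p = 5.43e-15).

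The structural proteins rose to a like degree. PMEL, whose cleaved lumenal domain forms the fibrils on which melanin is laid down, read 2334, 2362 and 2355 untreated and 4464 and 4307 in HBSS (0.90 ± 0.06, adjusted p = 1.74e-17). MLANA, a melanosomal membrane protein needed for PMEL processing, rose from 490 ± 34.5 to 878 ± 24.8 (0.84 ± 0.09, adjusted p = 1.87e-11). Both HBSS libraries lay above all untreated libraries for each gene.

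The ion transporters did not move as one. OCA2, which supports a melanosomal chloride current, read 25.5, 29.7 and 29.7 untreated and 55.0 and 56.5 in HBSS (0.96 ± 0.13, adjusted p = 5.21e-08). SLC45A2, a transporter that raises melanosomal pH, rose less, from 874 ± 31.6 to 1121 ± 34.9 (0.36 ± 0.07, adjusted p = 2.35e-05). SLC24A5, a potassium-dependent sodium-calcium exchanger, read 84.6, 65.3 and 72.4 untreated and 47.6 and 49.4 in HBSS, so it fell by 0.59 ± 0.10 on the log2 scale (adjusted p = 4.78e-06). It was the single transporter of the 3 that was lower. The SLC45A2 call was lost when the shared column was placed in WT Torin (log2 fold change still 0.36, SE 0.16 in place of 0.07, adjusted p = 0.0794).

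The receptors went opposite ways. MC1R read 77.4, 98.6 and 93.1 untreated and 29.7 and 28.7 in HBSS, or 129 and 137 reads a library in HBSS. Both HBSS libraries were far below the lowest untreated library, and MC1R fell by 1.58 ± 0.11 on the log2 scale (adjusted p = 3.27e-16). GPR143, a receptor of the melanosome membrane whose loss causes ocular albinism, rose from 200 ± 5.98 to 298 ± 12.2 (0.57 ± 0.08, adjusted p = 1.55e-07). The sum of the 10 members was 6356 ± 77.1 untreated and 13625 ± 258 in HBSS.

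MITF itself rose from 762 ± 37.3 to 1423 ± 44.1 in HBSS (0.90 ± 0.07, adjusted p = 1.55e-15) and did not pass under Torin in WT cells (-0.05 ± 0.07, adjusted p = 0.555). Under Torin MITF rose in TFE3 KO cells, from 682 ± 5.93 to 857 ± 16.4 (0.33 ± 0.06, adjusted p = 1.27e-05), and this response differed from that of WT cells (interaction 0.38 ± 0.09, adjusted p = 0.0235). That difference rests on WT Torin libraries that read MITF at 735 and 732, where the shared column read 1500. No alternative setting, including its placement in WT Torin, is given here for MITF. In DKO cells MITF was lower than in WT cells both untreated, at 556 ± 34.9 (-0.46 ± 0.06, adjusted p = 1.79e-07), and under Torin, at 580.2 ± 25.9 (-0.34 ± 0.07, adjusted p = 0.000448).

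**Figure D2:**
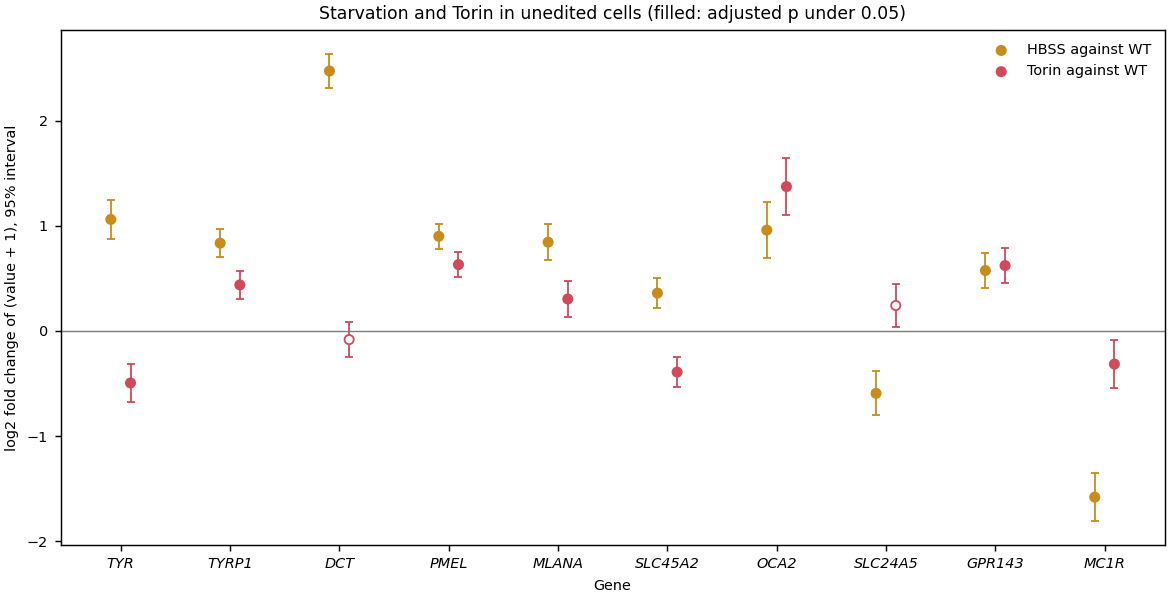
Log2 fold change of the 10 members against untreated WT cells (y axis, on the log2 of value + 1) for WT HBSS and WT Torin, with 95% intervals from the limma fit. Filled points have an adjusted p under 0.05. TYR stood at 1.06 in HBSS and -0.49 in Torin, and SLC45A2 at 0.36 and -0.39.

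The next comparison asked what 12 h of Torin did to the same genes in unedited cells. Of the 10 members, 5 were higher (OCA2, PMEL, GPR143, TYRP1 and MLANA) and 3 lower (TYR, SLC45A2 and MC1R), and DCT and SLC24A5 did not pass. Over all genes tested, 20.5% were higher and 23.4% lower. OCA2 was the single member past 2-fold, in the higher direction, where 5.66% of all genes were. The median log2 fold change was 0.27 over the members and 0.00 over all genes.

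OCA2 read 75.2 and 73.9 under Torin against 25.5 to 29.7 without it (1.37 ± 0.13, adjusted p = 8.57e-12). Its Torin libraries also lay above both HBSS libraries. PMEL read 3541 and 3739 (0.63 ± 0.06, adjusted p = 3.17e-12) and GPR143 read 298 and 318 (0.62 ± 0.08, adjusted p = 4.30e-08). TYRP1 reached 1805 ± 20.4 (0.44 ± 0.07, adjusted p = 3.68e-07) and MLANA 605 ± 62.9 (0.30 ± 0.09, adjusted p = 0.0036). All Torin libraries of these genes lay above all untreated ones. The MLANA call was lost when WT Torin replicate 3 was left out (0.20, adjusted p = 0.165).

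TYR read 134 and 132 under Torin, below the 171 of the lowest untreated library, and fell by 0.49 ± 0.09 on the log2 scale (adjusted p = 1.51e-05). SLC45A2 read 649 and 683, below the lowest untreated 839 (-0.39 ± 0.07, adjusted p = 7.91e-06). Both directions are opposite to those in HBSS. When the shared column was placed in WT Torin, TYR turned to 0.08 (adjusted p = 0.853) and SLC45A2 no longer passed (-0.07, adjusted p = 0.762).

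MC1R read 65.2 and 78.5 under Torin, and the higher of these overlapped the lowest untreated library at 77.4 (-0.32 ± 0.11, adjusted p = 0.0218). That call did not pass with edgeR (adjusted p = 0.0631), nor without WT replicate 2 (-0.24, adjusted p = 0.112), WT replicate 3 (-0.29, adjusted p = 0.0687) or WT Torin replicate 2 (-0.18, adjusted p = 0.338). DCT read 693 and 682, just under the untreated range of 704 to 759 (-0.08 ± 0.08, adjusted p = 0.438). SLC24A5 read 93.8 and 81.3, overlapping the untreated range (0.24 ± 0.10, adjusted p = 0.0545). It passed with edgeR (adjusted p = 0.0207), after rescaling by median-of-ratios factors (adjusted p = 0.0244), without WT replicate 1 (0.34, adjusted p = 0.0101) and without WT Torin replicate 3 (0.34, adjusted p = 0.0373).

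Starvation and Torin were then compared directly in WT cells. Of the members, 6 were higher and 3 lower in HBSS than in Torin, where 26.1% and 23.1% of all genes were. DCT differed most (2.55 ± 0.09, adjusted p = 3.55e-27), then TYR (1.55 ± 0.10, adjusted p = 9.83e-18). SLC45A2, MLANA, TYRP1 and PMEL were higher in HBSS by 0.27 to 0.75 on the log2 scale. MC1R was lower in HBSS (-1.26 ± 0.13, adjusted p = 1.06e-11), as was SLC24A5 (-0.83 ± 0.11, adjusted p = 3.76e-08). OCA2 was lower by a smaller amount (-0.41 ± 0.15, adjusted p = 0.0172). That call was lost when any 1 of the 4 libraries compared was left out (-0.39 to -0.43, adjusted p = 0.0540 to 0.0811). GPR143 did not pass (-0.05 ± 0.09, adjusted p = 0.705). With the shared column placed in WT Torin, OCA2, TYRP1, PMEL and SLC45A2 did not pass (adjusted p = 0.0605 to 0.215).

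**Figure D3:**
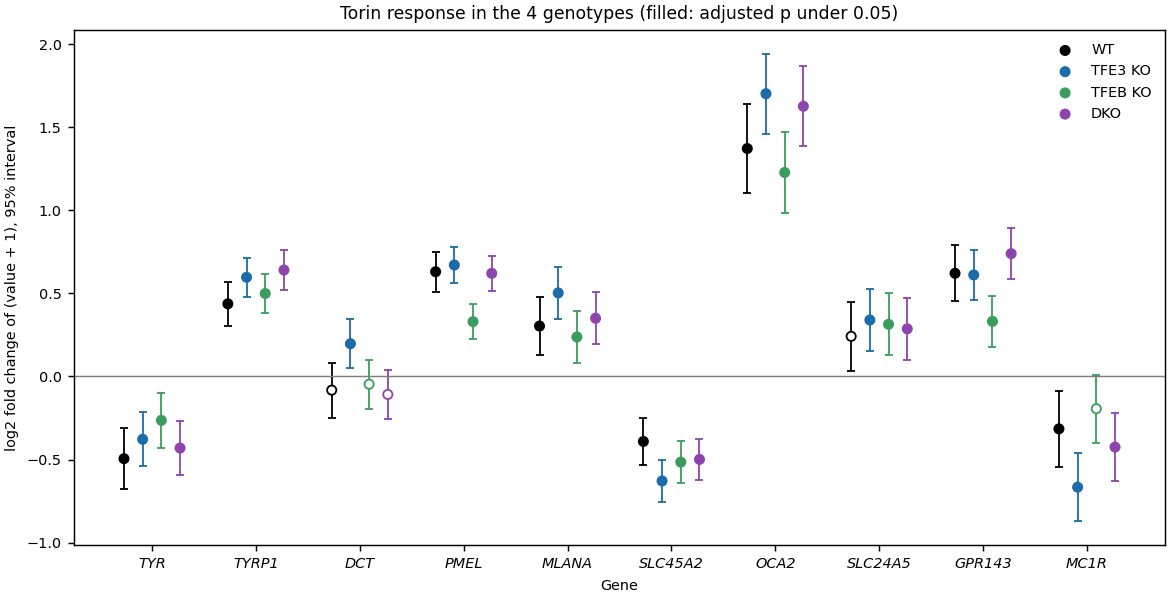
Log2 fold change of the 10 members in Torin against the untreated cells of the same genotype (y axis, on the log2 of value + 1), with 95% intervals from the limma fit, for WT, TFE3 KO, TFEB KO and DKO. Filled points have an adjusted p under 0.05. OCA2 stood highest in each genotype, between 1.23 and 1.70, and TYR and SLC45A2 stood below 0 in all 4.

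The knockouts addressed whether the Torin response of the pigment genes depends on TFE3 or TFEB. In TFE3 KO cells 7 members were higher and 3 lower (25.4% and 26% of all genes), with a median log2 fold change of 0.42 over the members and 0.02 over all genes. In TFEB KO cells 6 were higher and 2 lower (17.4% and 21% of all genes; medians 0.28 and 0.00). In DKO cells 6 were higher and 3 lower (25.4% and 26.2% of all genes; medians 0.32 and 0.02). The 5 members higher in WT cells were higher in all 3 knockouts, and TYR and SLC45A2 were lower in all 3. The share of all genes that kept a call across the genotypes was not counted, so this is no trait particular to the members. Each genotype was compared with its own untreated libraries, so these comparisons share no control samples.

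OCA2 was past 2-fold in every genotype. It went from 21.0, 23.5 and 25.4 to 88.4, 73.3 and 72.8 in TFE3 KO cells (1.70 ± 0.12, adjusted p = 1.03e-16) and from 20.04, 25.3 and 23.7 to 52.9, 56.5 and 55.6 in TFEB KO cells (1.23 ± 0.12, adjusted p = 1.20e-11). In DKO cells it went from 14.6, 16.6 and 13.6 to 42.3, 48.0 and 54.7 (1.63 ± 0.12, adjusted p = 5.91e-16). No Torin library overlapped an untreated one in any genotype. OCA2 was the single member past 2-fold in each, and 6.98%, 3.36% and 6.83% of all genes rose that far in TFE3 KO, TFEB KO and DKO cells.

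TYR read 160.1, 147 and 188 under Torin against 211 to 219 without it in TFE3 KO cells (-0.38 ± 0.08, adjusted p = 0.000111). In DKO cells it read 159.8, 173 and 165 against 219.9 to 227 (-0.43 ± 0.08, adjusted p = 1.63e-05). In TFEB KO cells it read 151, 148 and 123 against 164 to 173 (-0.26 ± 0.08, adjusted p = 0.00801), a call that was lost without TFEB KO Torin replicate 3 (-0.17, adjusted p = 0.118). SLC45A2 fell in TFE3 KO, TFEB KO and DKO cells by 0.63, 0.52 and 0.50 on the log2 scale (adjusted p = 4.72e-12, 3.09e-09 and 2.79e-09). No Torin library of TYR or SLC45A2 overlapped an untreated one in any of the 3 clones.

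MC1R fell from 113, 114 and 115 to 60.2, 70.1 and 86.1 in TFE3 KO cells (-0.67 ± 0.10, adjusted p = 3.49e-07). It fell from 114, 112 and 119.9 to 77.7, 85.9 and 93.9 in DKO cells (-0.43 ± 0.10, adjusted p = 0.000504). In TFEB KO cells it read 77.2, 83.2 and 79.2 untreated and 67.3, 69.7 and 72.1 under Torin, a difference that did not pass (-0.19 ± 0.10, adjusted p = 0.13) although the libraries did not overlap. Untreated MC1R was thus higher in the TFE3 KO and DKO clones than in the TFEB KO clone, and the Torin levels of the 3 clones lay between 60.2 and 93.9.

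PMEL rose by 0.67 ± 0.05 in TFE3 KO, 0.33 ± 0.05 in TFEB KO and 0.62 ± 0.05 in DKO cells on the log2 scale (adjusted p = 5.73e-15, 2.01e-06 and 8.35e-14). TYRP1 rose by 0.60, 0.50 and 0.64 and GPR143 by 0.61, 0.33 and 0.74 in the same order. SLC24A5, which had not passed in WT cells, rose by 0.34, 0.31 and 0.29 (adjusted p = 0.00192, 0.00589 and 0.00855). MLANA rose by 0.50, 0.24 and 0.35, and its TFEB KO call (adjusted p = 0.0124), with overlapping libraries, was lost without TFEB KO replicate 1 (0.14, adjusted p = 0.179) or TFEB KO Torin replicate 3 (0.18, adjusted p = 0.0973). DCT passed in TFE3 KO cells alone of the 4 genotypes, from 738, 702 and 628 to 777, 754 and 836 (0.20 ± 0.07, adjusted p = 0.0217). That call was lost without TFE3 KO replicate 3 (0.13, adjusted p = 0.182) or TFE3 KO Torin replicate 3 (0.15, adjusted p = 0.118), and DCT in DKO cells passed only without DKO replicate 3 (-0.19, adjusted p = 0.0347).

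With the shared column placed in WT Torin, the fold changes within the knockouts were unchanged and their SE was larger for all 10 members. TYR then did not pass in any of the 3 clones, nor did DCT in TFE3 KO, MLANA in TFEB KO, SLC24A5 in TFEB KO and DKO, and MC1R in DKO cells (adjusted p = 0.0796 to 0.749).

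The difference between the Torin response of a knockout and that of WT cells was tested as an interaction. For TFE3 KO, 0 members passed in limma in either direction (0.49% of all genes were higher and 0.575% lower), against 1 higher and 2 lower at an unadjusted p under 0.05 and 0 in edgeR. For DKO, 0 members passed in either direction (0.314% and 0.192% of all genes), against 1 higher and 0 lower at an unadjusted p under 0.05 and 0 in edgeR. For TFEB KO, 0 members were higher (0.812% of all genes), also at an unadjusted p under 0.05 and in edgeR. At an unadjusted p under 0.05, 2 were lower, and 1 was lower after adjustment (0.345% of all genes). That member was PMEL, whose rise was smaller in TFEB KO than in WT cells by 0.30 ± 0.08 on the log2 scale (95% interval -0.46 to -0.14, adjusted p = 0.044). The PMEL interaction did not pass with edgeR (adjusted p = 0.08) or after rescaling by median-of-ratios factors (adjusted p = 0.0519), and was lost when any 1 of the 11 libraries compared other than TFEB KO replicate 3 was left out (adjusted p = 0.0513 to 0.245), with differences of -0.26 to -0.34. In TFE3 KO cells the 95% interval of the difference was -0.66 to -0.04 for MC1R and -0.42 to -0.05 for SLC45A2. There it was 0.06 to 0.50 for DCT and -0.03 to 0.69 for OCA2. The interval was -0.52 to -0.06 for GPR143 in TFEB KO and 0.03 to 0.38 for TYRP1 in DKO cells. None of these differences passed after adjustment.

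**Figure D4:**
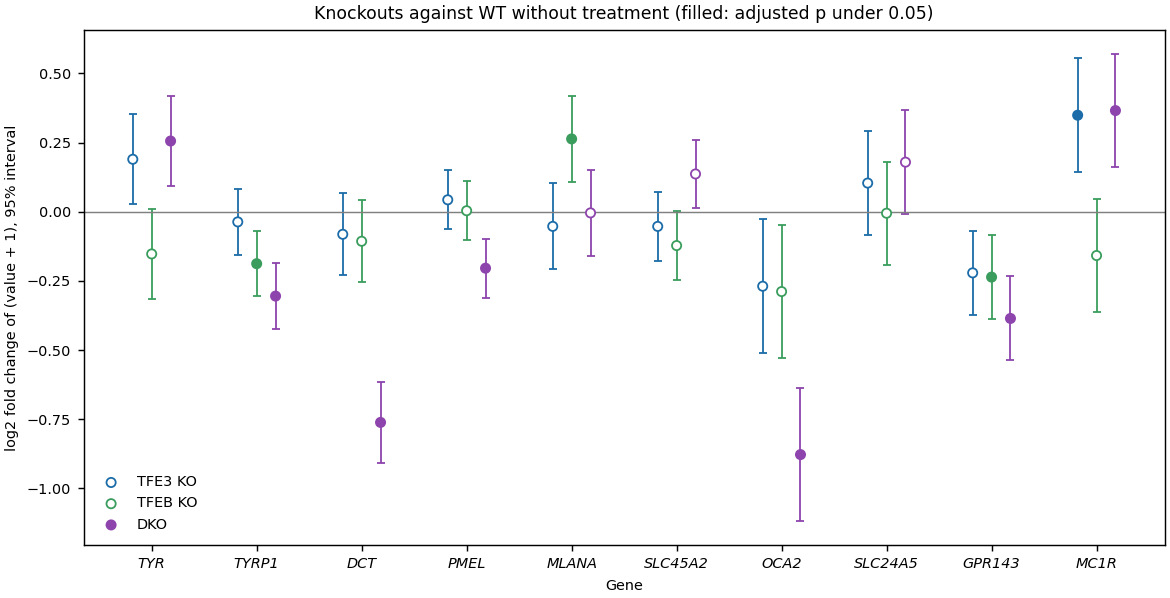
Log2 fold change of the 10 members in untreated TFE3 KO, TFEB KO and DKO cells against untreated WT cells (y axis, on the log2 of value + 1), with 95% intervals from the limma fit. Filled points have an adjusted p under 0.05. DCT stood at -0.76 and OCA2 at -0.88 in DKO cells, and between -0.08 and -0.29 in the single knockouts.

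Without treatment, the question was how loss of TFE3, TFEB or both changed pigment genes. In DKO cells 5 members were lower (OCA2, DCT, GPR143, TYRP1 and PMEL) and 2 higher (MC1R and TYR), where 7.49% and 5.64% of all genes were. In TFE3 KO cells MC1R was the 1 member higher and 0 were lower (3.57% and 5.84% of all genes). For that count of 0, 2 members had an unadjusted p under 0.05 and 0 passed in edgeR. In TFEB KO cells MLANA was higher and TYRP1 and GPR143 were lower (7.46% and 7.18% of all genes). The median log2 fold changes of the members were -0.04 in TFE3 KO, -0.14 in TFEB KO and -0.10 in DKO cells, and 0.00 over all genes in each. The 3 comparisons share the untreated WT libraries.

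DCT read 506, 408 and 382 in DKO cells, against 704 to 759 in WT, 628 to 738 in TFE3 KO and 667 to 685 in TFEB KO cells. All 3 DKO libraries were below every library of the other 3 genotypes, and the difference from WT was -0.76 ± 0.07 (adjusted p = 2.67e-11). In TFE3 KO cells DCT differed from WT by -0.08 ± 0.07 (adjusted p = 0.575), and in TFEB KO cells by -0.11 ± 0.07 (adjusted p = 0.364). OCA2 behaved alike, with 13.6 to 16.6 in DKO cells against 20.04 to 29.7 in the other genotypes (-0.88 ± 0.12 against WT, adjusted p = 2.63e-07). In the single knockouts OCA2 differed from WT by -0.27 ± 0.12 and -0.29 ± 0.12 (adjusted p = 0.164 and 0.098).

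The DKO cells were also compared with each single knockout, a pair of comparisons added after the other results were known. Against TFE3 KO cells 4 members were lower and 0 higher (2.22% and 2.65% of all genes), against TFEB KO cells 4 were lower and 3 higher (13.7% and 11.8% of all genes). For the count of 0, 1 member had an unadjusted p under 0.05 and 0 passed in edgeR. DCT was lower than in either single knockout (-0.68 ± 0.07, adjusted p = 3.73e-09, and -0.65 ± 0.07, adjusted p = 1.28e-09), as was OCA2 (-0.61 ± 0.12, adjusted p = 0.000618, and -0.59 ± 0.12, adjusted p = 0.000176). PMEL was lower by a smaller amount (-0.25 and -0.21, adjusted p = 0.00182 and 0.00267). With the shared column placed in WT Torin, the 3 DCT differences kept their size (-0.76, -0.68 and -0.65 against WT, TFE3 KO and TFEB KO cells) and, with the larger SE, did not pass (adjusted p = 0.402, 0.676 and 0.364). PMEL did not pass against either single knockout with that placement (adjusted p = 0.0919 and 0.0521). The calls of TYRP1 against TFE3 KO and of TYR, MLANA, SLC45A2 and MC1R against TFEB KO cells were lost as well. The OCA2 differences from both single knockouts still passed.

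MC1R was 113, 114 and 115 in TFE3 KO and 114, 112 and 119.9 in DKO cells, above all WT (77.4 to 98.6) and all TFEB KO libraries (77.2 to 83.2). The difference from WT was 0.35 ± 0.10 in TFE3 KO (adjusted p = 0.0205) and 0.37 ± 0.10 in DKO cells (adjusted p = 0.0105). Without WT replicate 1, the lowest WT library, these were 0.25 (adjusted p = 0.18) and 0.26 (adjusted p = 0.111). The TFE3 KO call was also lost without any 1 of the TFE3 KO libraries (0.34 to 0.36, adjusted p = 0.0532 to 0.0656).

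TYR was 225, 227 and 219.9 in DKO cells, above the WT range of 171 to 198 (0.26 ± 0.08, adjusted p = 0.027), and this call was lost without WT replicate 2 (0.19, adjusted p = 0.189), DKO replicate 1 or DKO replicate 2 (adjusted p = 0.067 and 0.0832). GPR143, TYRP1 and PMEL were lower in DKO than in WT cells by 0.39, 0.30 and 0.20 on the log2 scale (adjusted p = 0.000196, 0.000159 and 0.00595). With the shared column placed in WT Torin the fold changes were the same and the SE larger, and OCA2, TYRP1 and GPR143 passed of the 7 DKO calls against WT and none of the 4 single knockout calls did.

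The TFEB KO calls were small: MLANA 0.26 (adjusted p = 0.0158), with overlapping libraries, GPR143 -0.24 (adjusted p = 0.0269) and TYRP1 -0.19 (adjusted p = 0.0234). Each was lost when 1 of 2 or 3 of the libraries compared was left out. These were WT replicate 2 or TFEB KO replicate 3 for MLANA (0.21 and 0.16), WT replicate 2 or 3 or TFEB KO replicate 2 for GPR143 (-0.23, -0.22 and -0.19), and WT replicate 3 or TFEB KO replicate 1 for TYRP1 (-0.16 and -0.12). The TYRP1 call was also lost with edgeR (adjusted p = 0.0527).

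Between the single knockouts without treatment, 3 members were higher in TFE3 KO (MC1R, TYR and TYRP1) and 1 was lower (MLANA), where 14.3% and 15.6% of all genes were. MC1R differed most (0.51 ± 0.10, adjusted p = 0.000126), then TYR at 214 ± 4.06 against 169 ± 4.48 (0.34 ± 0.08, adjusted p = 0.000995). MLANA was 471 ± 10.8 in TFE3 KO and 591 ± 84.3 in TFEB KO cells (-0.32 ± 0.08, adjusted p = 0.00136). The TYRP1 call (0.15 ± 0.06, adjusted p = 0.0455) did not pass with edgeR (adjusted p = 0.0779) and was lost without any 1 of 5 of the 6 libraries, the exception being TFEB KO replicate 3. With the shared column placed in WT Torin, the fold changes were the same and MLANA was the 1 call left.

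Under Torin the knockouts were compared with WT Torin cells, which are 2 libraries shared by the 3 comparisons. DKO cells had 4 members lower and 1 higher (7.03% and 5.03% of all genes), TFEB KO cells had 4 lower and 0 higher (8.56% and 9.39%), and TFE3 KO cells had 1 lower and 1 higher (6.23% and 3.41%). For the 0 in TFEB KO cells, 1 member had an unadjusted p under 0.05 and 0 passed in edgeR. DCT read 378, 422 and 395 in DKO cells with Torin against 682 and 693 in WT (-0.79 ± 0.08, adjusted p = 6.09e-10), and OCA2 read 42.3 to 54.7 against 73.9 and 75.2 (-0.62 ± 0.13, adjusted p = 0.00096). Both genes were therefore lower in DKO than in WT cells with and without Torin.

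In TFEB KO cells under Torin, GPR143 (-0.53 ± 0.08, adjusted p = 9.95e-06), PMEL (-0.30 ± 0.06, adjusted p = 0.000301), OCA2 (-0.43 ± 0.13, adjusted p = 0.0192) and SLC45A2 (-0.25 ± 0.07, adjusted p = 0.00937) were lower than in WT Torin. The OCA2 call was lost without either WT Torin library or TFEB KO Torin replicate 1 (-0.41 to -0.44, adjusted p = 0.0612 to 0.108), and the SLC45A2 call without WT Torin replicate 3 or TFEB KO Torin replicate 3 (-0.21 and -0.18). TYR was higher in TFE3 KO and DKO cells (0.31 and 0.32, adjusted p = 0.0224 and 0.0137), and SLC45A2 was lower in TFE3 KO cells (-0.29, adjusted p = 0.00344). The TYR calls were lost without either WT Torin library, TFE3 KO Torin replicate 3 or DKO Torin replicate 2 (0.21 to 0.33). Both turned to -0.27 and -0.26 (adjusted p = 0.542 and 0.538) when the shared column was placed in WT Torin. The OCA2 call in TFEB KO cells was also lost with that placement (-0.28, adjusted p = 0.19). The SLC45A2 call in TFE3 KO cells was lost without WT Torin replicate 3 (-0.25, adjusted p = 0.0887). In DKO cells PMEL (-0.21, adjusted p = 0.0118) was lost without WT Torin replicate 3 or DKO Torin replicate 1 (-0.17 and -0.20). GPR143 (-0.27, adjusted p = 0.0282) was lost without either WT Torin library or DKO Torin replicate 1 or 3 (-0.22 to -0.31).

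Ranked by group mean, WT HBSS was the highest of the 9 groups for TYR, TYRP1, DCT, PMEL, MLANA and SLC45A2 and the lowest for MC1R and SLC24A5. For these 8 genes it also differed from its neighbour in the order. Of the 80 pairs of neighbouring groups over the 10 members, 23 differed at an adjusted p under 0.05. The pairs were set by sorting the same means, and neither count was made over all genes, so both are descriptions only. The ratio of the highest to the lowest group mean was 10.1 for DCT, from 398 in DKO Torin to 4039 in WT HBSS. It was 5.23 for OCA2, from 14.9 in untreated DKO to 78.2 in TFE3 KO Torin cells, and 3.95 for MC1R, from 29.2 in WT HBSS to 115 in untreated DKO cells. The other 7 ratios lay between 1.86 and 2.95.

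In the order of DCT means, DKO Torin and DKO did not differ (adjusted p = 0.218), and the step from DKO at 432 to TFEB KO Torin at 655 did (adjusted p = 1.51e-09). Within the 6 groups from there to TFE3 KO Torin at 789, neighbours did not differ. Groups further apart in such a run could differ, as TFE3 KO Torin did from TFE3 KO (adjusted p = 0.0217). For OCA2, DKO was below TFEB KO (adjusted p = 0.000176), and neighbours within the run of TFEB KO, TFE3 KO and WT did not differ. All Torin and HBSS groups stood above WT, from 48.3 in DKO Torin upwards. For MC1R, the step from WT HBSS to TFEB KO Torin at 69.7 differed (adjusted p = 1.58e-12). Within the 6 groups from there to WT at 89.7, neighbours did not differ, although WT Torin differed from WT (adjusted p = 0.0218). TFE3 KO at 114 stood above WT (adjusted p = 0.0205) and did not differ from DKO (adjusted p = 0.965). For TYR the 4 Torin groups were the lowest, from 133 in WT to 166 in DKO, and TFEB KO at 169 did not differ from DKO Torin (adjusted p = 0.828). GPR143 was highest in WT Torin at 308, which did not differ from WT HBSS at 298 (adjusted p = 0.705).

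**Figure D5:**
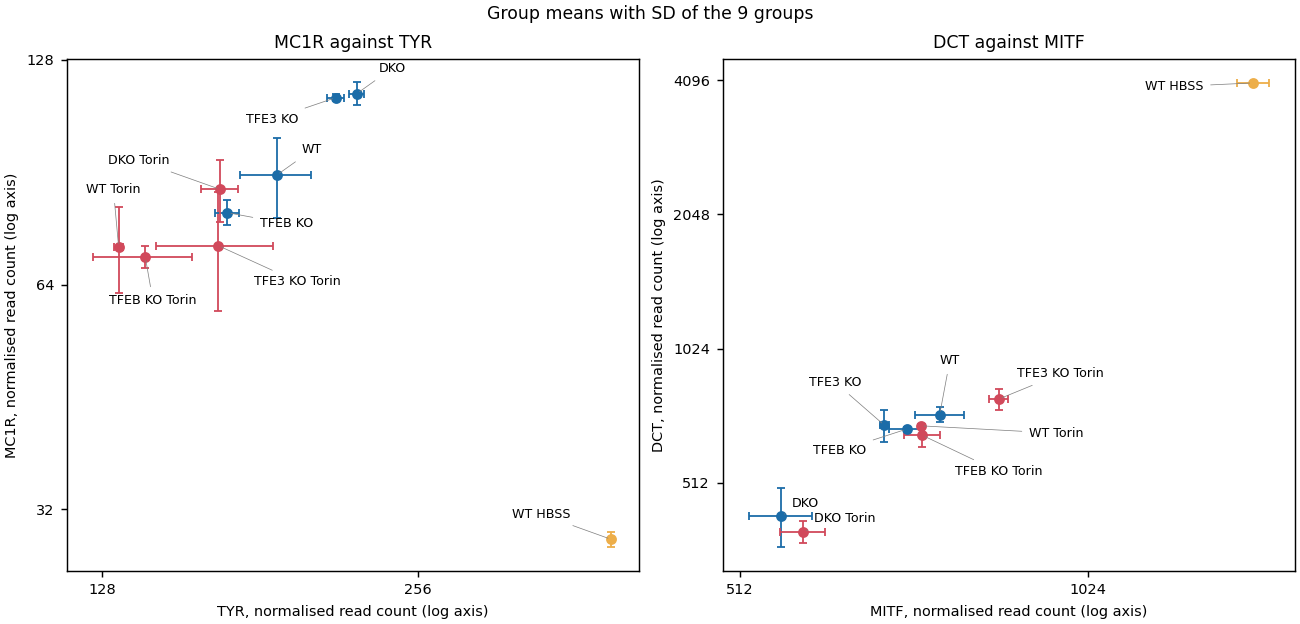
Group means of MC1R against TYR and of DCT against MITF in the 9 groups, on log axes of normalised read count, with SD bars. Blue marks untreated groups, yellow WT HBSS and red Torin. WT HBSS stood at 392 for TYR and 29.2 for MC1R, away from the other 8 groups, in which the 2 genes were low or high together.

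Pairs of members were described by Pearson's r of the log2 group means, over 9 points whose libraries share their scaling, and no p is given. PMEL and TYRP1 had r = 0.98, and 0.98 over the 8 groups without WT HBSS. TYR and MC1R had r = -0.52 over all 9 groups and 0.93 over the 8 without WT HBSS. TYR and SLC45A2 had r = 0.84 and 0.78. SLC45A2 and OCA2 had r = -0.58 over 9 groups and -0.91 over 8. MITF and DCT had r = 0.98 and 0.94, whereas MITF and OCA2 had r = 0.47 and 0.56. Among the 9846 other genes with a mean of at least 5, the closest to TYR was SH2B1 (r = 0.99), to TYRP1 and PMEL SEMA3C (0.99 each), to DCT SBNO2 (0.99), to MLANA BRWD1 (0.98) and to SLC45A2 TMEM70 (0.98). The closest to OCA2 was PINK1 (0.98), to GPR143 NBEAL1 (0.98), to SLC24A5 UBR1 (0.99) and to MC1R ADSS (0.99). With so many candidates over 9 points, values of this size describe these groups and nothing more.

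Genes around the members were counted by 3 lists. Of 30 genes that signal to the pigment genes, 25 were tested, of 32 melanosome formation and transport genes 31, and of 14 genes of melanosomal ions, copper and cystine all 14. In HBSS, where 23.6% of all genes were higher and 24.7% lower, 14 signalling genes were higher and 5 lower. KIT, the stem cell factor receptor, rose from 123 ± 5.54 to 343 ± 15.0 (1.48 ± 0.10, adjusted p = 1.80e-17) and ADCY2, an adenylyl cyclase, from 14.5 ± 2.52 to 46.4 ± 2.47 (1.63 ± 0.17, adjusted p = 4.81e-11). ADCY3, another adenylyl cyclase, fell by 1.39 ± 0.17 (adjusted p = 2.40e-09) and LEF1, a partner of beta-catenin, by 0.84 ± 0.09 on the log2 scale (adjusted p = 3.79e-11). Of the melanosome genes 14 were higher and 5 lower in HBSS. RAB27A, which ties melanosomes to the myosin that carries them, rose from 89.8 ± 7.90 to 367 ± 23.7 (2.02 ± 0.10, adjusted p = 7.19e-22), and HPS6, a subunit of the trafficking complex BLOC-2, fell from 29.4 ± 1.42 to 6.37 ± 0.427 (-2.05 ± 0.15, adjusted p = 1.13e-15). Of the ion genes 5 were higher and 1 lower, with CLCN7, a chloride-proton exchanger, at 1.46 ± 0.12 (adjusted p = 1.18e-14) and SLC3A2, a subunit of amino acid transporters, at 1.04 ± 0.08 (adjusted p = 3.17e-15). The median log2 fold changes of the 3 lists were 0.53, 0.18 and 0.18, against -0.03 over all genes.

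Under Torin in WT cells, where 20.5% of all genes were higher and 23.4% lower, 9 signalling genes were higher and 2 lower, 7 melanosome genes higher and 8 lower, and 4 ion genes higher and 6 lower, with medians of 0.22, 0.09 and -0.05 against 0.00 over all genes. The endothelin receptor EDNRB (1.01 ± 0.09, adjusted p = 2.94e-13) and KIT (1.01 ± 0.10, adjusted p = 7.05e-12) were the highest signalling genes. LYST (1.12 ± 0.15, adjusted p = 2.67e-08) and MLPH, the linker between RAB27A and myosin (1.10 ± 0.11, adjusted p = 6.59e-12), were the highest melanosome genes. SLC3A2 fell under Torin (-0.73 ± 0.08, adjusted p = 2.41e-10), against its rise in HBSS. The melanosome counts of WT cells under Torin were near the shares over all genes. Under Torin in the 3 knockouts, 6 to 8 signalling genes were higher and 1 or 2 lower, 6 to 12 melanosome genes higher and 4 to 6 lower, and 3 to 5 ion genes higher and 3 to 6 lower, where 17.4% to 25.4% of all genes were higher and 21% to 26.2% lower. The medians were 0.15 to 0.33 for the signalling, -0.09 to 0.05 for the melanosome and -0.17 to -0.00 for the ion genes. Without treatment, at most 3 genes of a list were higher and 1 to 5 lower in a knockout than in WT cells, where 3.57% to 7.46% of all genes were higher and 5.84% to 7.49% lower.

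Markers of an undifferentiated melanoma state moved with the treatments. Of 12 markers 8 were in the table, and their sum was 67.4 to 74.0 in untreated WT, 96.3 to 102 in WT HBSS and 131 to 141 in WT Torin. Untreated, it was 28.6 to 34.2 for TFE3 KO, 52.1 to 56.2 for TFEB KO and 23.9 to 27.1 for DKO cells, and 74.9 to 140 in their Torin groups. The part of this in the pigment results was not tested.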

How the data were processed

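Per the study's methods and the submitters' processing notes, the authors trimmed adaptors and poly-A from single-end 3′ end reads (cutadapt 2.10, FastQC 0.11.9), mapped them to hg38 with STAR 2.7.8a and normalised with edgeR. The counting program, its strand setting and the scaling are not given in the sources used here. The deposited table holds a normalised signal per gene on the CPM scale, from which whole reads were recovered for 100% of values in every library (tolerance 0.02 reads), in all 4147050 to 6526392 reads a library. A floor of 3 reads was a value of 0.460 to 0.711, and floors cover counting error only. The table had 0 columns of values without a sample.

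Of 27 columns, 25 were used, and the identical pair was left out of every group. Genes that reached 1 on this scale in 3 or more libraries were fitted together (R 4.3.3, limma 3.58.1, trend and robust empirical Bayes) on log2(value + 1), which understates the change of low genes. The fit had 1 mean for each of 9 groups, and p-values were adjusted by Benjamini and Hochberg within a comparison over all 13052 genes, with a threshold of 0.05. A replicated group of 2 or 3 libraries is given as mean ± SD, and fold changes carry the SE of the fit. The fit was tested on simulated data.

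All 10 members were named, with TFE3, TFEB and MITF as a check of the labels. From each further list at most the 2 highest and the 2 lowest changed genes with a mean of at least 5 were named. The members and lists were chosen with earlier results of these data known. The comparisons of DKO with each single knockout were added after seeing the data. Alternatives were a pseudocount of 0.1, no filter, median-of-ratios factors, edgeR 4.0.16 on the recovered reads, the replicate number as a block, the duplicated column counted as WT HBSS or as WT Torin, and each library left out. Same-numbered libraries did not deviate together (0 of 7 comparisons with every correlation over 0.1), so the numbers were not taken as pairs. Gene positions come from GENCODE 44 and promoter windows from RefSeq.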

Additional observations from a re-analysis of the deposited data

Results flagged for a closer look

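The rise of PMEL under Torin differed between TFEB KO and WT cells in the limma interaction test. PMEL went from 2324, 2451 and 2296 to 2974, 3019 and 2896 in TFEB KO cells and from 2334, 2362 and 2355 to 3541 and 3739 in WT cells, a difference of -0.30 on the log2 scale (adjusted p = 0.044). The call did not pass in edgeR (adjusted p = 0.08), after rescaling by median-of-ratios factors (adjusted p = 0.0519), or without any 1 of the 11 libraries other than TFEB KO replicate 3 (-0.26 to -0.34). All 3 TFEB KO Torin libraries were below both WT Torin libraries. TFEB KO is 1 clone, so clone and genotype cannot be told apart.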

How the results depend on the processing

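Of 160 values (10 members in 16 comparisons), 81 passed the test. No value changed its call or turned with a pseudocount of 0.1, without the filter, with the replicate number as a block or with the duplicated column counted as WT HBSS. edgeR on the recovered reads lost 4 calls and gained 1, and median-of-ratios factors lost 1 and gained 1. Both gave 0 members for the TFEB KO interaction, against 1. With the replicate block, 24 of 80 neighbouring groups differed, against 23 without it.

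Counting the duplicated column as WT Torin lost 27 calls, gained 5 and turned 3. TYR turned in WT Torin against untreated WT (0.0794), and in TFE3 KO (-0.27) and DKO (-0.26) against WT under Torin. Members changed then numbered 5 for Torin in TFEB KO, 0 in untreated TFE3 KO and 0 in untreated TFEB KO against WT, 3 in untreated DKO against WT, 1 between the single knockouts, 5 between HBSS and Torin, and 0 for the TFEB KO interaction. Neighbouring groups that differed numbered 14. In comparisons without WT Torin the fold changes were identical and the SE was larger for all 10 members. Calls over all genes fell as well, from 1228 to 484 in untreated TFE3 KO and 1911 to 765 in untreated TFEB KO against WT, and from 5005 to 3679 for Torin in TFEB KO. The column read nearer to WT HBSS than to WT Torin for 9 of 10 members.

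With each library left out in turn, members changed numbered 10 in HBSS, and under Torin 7 to 9 in WT, 9 to 10 in TFE3 KO, 6 to 8 in TFEB KO and 9 to 10 in DKO cells. Against untreated WT they numbered 0 to 1 in TFE3 KO, 1 to 3 in TFEB KO and 6 to 7 in DKO cells. Under Torin against WT they numbered 0 to 2, 2 to 4 and 2 to 4 in the same order. They numbered 3 to 4 between the single knockouts, 8 between HBSS and Torin, and 0, 0 to 1 and 0 for the interactions. Neighbouring groups that differed numbered 19 to 25. Of 1040 such values, 61 lost a call, 3 gained one and 0 turned. Leaving out a WT HBSS or WT Torin library leaves 1 sample, which is assumed to vary like the other groups. Low levels limit OCA2, MC1R and SLC24A5 most, as the members with the fewest reads.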
